A study of Mus musculus with 5 samples.

Results

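The organic ion and drug transporters of the mouse kidney were examined in RNAseq of cortical kidney tissue from *Fnip1* null and wildtype mice. They were chosen by gene symbol: every *Slc22a*, *Slco*, *Slc47a* and *Slc17a* gene and every *Abcb*, *Abcc* and *Abcg* gene other than *Abcg1*. This gave 76 of the 24421 gene symbols counted, and 52 of the 76 had enough counts to enter a test run on 13874 genes. The groups were 3 *Fnip1* null mice (genotype Fnip1-/-, numbers 8637, 9210 and 9121) and 2 wildtype mice (genotype Fnip1+/+ in the labels, numbers 9055 and 9056), all of strain C57BL6J, untreated as far as the labels state, with 1 library per mouse. The text of the study also names its RNAseq controls as Fnip1+/- animals, and the labels are followed here. It also describes more wildtype mice for its RNAseq than were analysed here. The null allele is constitutive, so every cell of these animals lacks Fnip1, and the tissue is whole cortex, so in each value fewer cells of a type and less RNA per cell cannot be told apart. The labels give neither age nor sex. Values of single mice are given in the order of the numbers above.

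Renal proximal tubule cells clear drugs, toxins and metabolites from blood to urine in separate steps. Organic anion and cation transporters of the Slc22 family, together with organic anion transporting polypeptides of the Slco family, carry solutes across the cell membranes, mostly by exchange or facilitated diffusion. Slc47 proton antiporters, Slc17 anion transporters and ATP-driven pumps of the Abc families move them out into the tubule lumen or back to blood. Many of these genes are known to differ in level between male and female mouse kidneys, *Slco1a1* as a male-predominant example and *Slc22a7*, *Slc22a19* and *Abcc3* as female-predominant ones. *Fnip1* itself encodes a binding partner of folliculin and of AMP kinase.

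Genes were counted to a total of 15799114 to 19132145 per mouse, and CPM below are these counts per 1000000, scaled by edgeR's trimmed-mean method (TMM). A total of 3 counts, taken as the floor, stands for 0.158 to 0.186 CPM. *Fnip1*, the disrupted gene, measured 21, 16.9 and 16 CPM in null against 51.8 and 48.7 CPM in wildtype tissue (log2 fold change -1.48, adjusted p = 0.033). By this gene the libraries labelled null stood apart from those labelled wildtype. Its level cannot tell Fnip1+/+ from Fnip1+/- controls here, and it says nothing of the mouse numbers. Library 9121 stands apart from the other 4. Its summed CPM of 4 Y-linked genes was 0.370 against 127 to 145 in the others, and its *Xist*, the transcript of the inactive X chromosome, was 314 CPM against 0.172 to 1.41. Fold changes of some genes are therefore given with and without this mouse. A gene given with 1 value was not necessarily insensitive to it. Without mouse 9121 the log2 fold change of *Abcb1b* went from 1.59 to 1.25. That of *Slc22a6* went from -1.16 to -0.901, which is under 2-fold. For 1 gene, 3 against 2 mice allow an exact permutation p of 0.1 at the lowest, so the tests below are those of models fitted across all genes.

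In the null mice these transporters, as a class, held a smaller share of the transcripts counted. They took 0.932, 0.727 and 0.723% of gene counts in the null libraries but 1.19 and 1.30% in the wildtype libraries. Summed over the 51 solute carrier genes (*Slc22*, *Slco*, *Slc47* and *Slc17*) the level was 8029, 5630 and 5444 CPM in null and 11019 and 12622 CPM in wildtype mice. Null mice thus had 0.539 of the wildtype mean. For the 25 Abc genes the sums were 1441, 1195 and 1193 CPM against 1474 and 1561 CPM, a ratio of 0.841. The sums are carried by a few abundant genes and are a description without a test.

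Gene by gene, no transporter passed the threshold of the quasi-likelihood test, set at an FDR of 5% with a 2-fold minimum, and the lowest adjusted p among them was 0.0644. Among all tested genes 0.123% passed it as lower and 0.404% as higher. At an unadjusted p under 0.05, 15 transporters were lower and 10 were higher, which is 28.8% and 19.2% of the 52, where 11.2% and 14% of all genes were lower and higher. By edgeR's exact test at the same FDR and fold, 6 were lower (*Slc22a12*, *Slc22a7*, *Slc22a2*, *Slc22a26*, *Slc17a3* and *Slco3a1*) and 4 were higher (*Abcc4*, *Abcb1b*, *Slc22a3* and *Slc22a29*). That test called 1.04% of all genes lower and 3.03% higher. The likelihood ratio test of edgeR called 7 lower and 5 higher, where it called 151 and 477 of all 13874 genes. DESeq2 called 4 lower and 3 higher, where it called 121 and 366 of all genes.

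The overlap of the groups tells the same values without a model. For 22 of the 52 transporters (42.3%) each null value was under each wildtype value, a position held by 23% of all tested genes. All 3 were above both for 11 (21.2%), where 22.9% of all genes were. Log2 fold changes were negative for 37 and positive for 15, with a median of -0.32, and the median over all tested genes was 0.0035. Among the 43 transporters with a mean of at least 10 CPM the median was -0.37, against -0.051 for all genes of that abundance. Transporters under 10 CPM had a median of 0.45, where all such genes had 0.31.

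The null mice did not differ from wildtype to the same extent. The median transporter stood at -0.17 on the log2 scale relative to the wildtype mean in mouse 8637, at -0.44 in mouse 9210 and at -0.34 in mouse 9121. Of the 22 transporters below wildtype in every null mouse, 8637 was the closest to wildtype for 21 and 9121 the furthest for 18. Over all genes in that position, 8637 was closest for 68.8% and 9121 furthest for 57.4%.

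**Figure D1:**
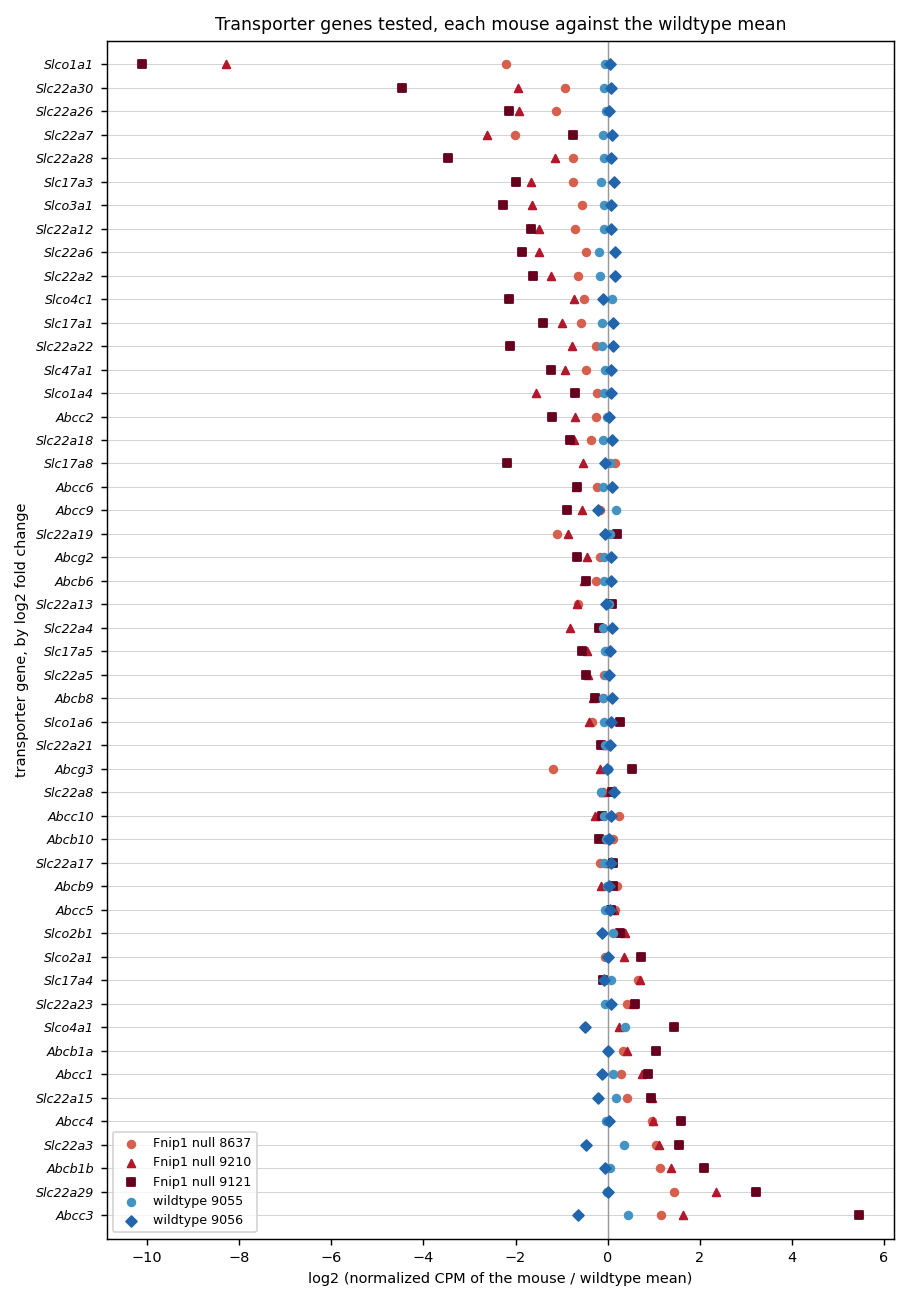
Each row is a tested transporter gene, ordered by log2 fold change, and each point is 1 mouse as the log2 ratio of its normalized CPM to the wildtype mean (red, *Fnip1* null; blue, wildtype). All null mice sit left of both wildtype mice for *Slc22a12* and *Slc22a2* and right of both for *Slc22a3*, and the null mice spread most for *Slco1a1*, *Slc22a30* and *Abcc3*.

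Per kilobase of exon, the scale on which genes can be compared, the urate exchanger gene *Slc22a12* was the most abundant transporter in both genotypes. It reached 1161 ± 93.3 CPM per kb (SD, n = 2) in wildtype and 495 ± 183 (SD, n = 3) in null mice. In wildtype mice *Slc17a1* (395 ± 42.4 CPM per kb), *Slc22a6* (368 ± 63.2) and *Slc22a18* (343 ± 31.3) followed and did not differ beyond their spread, and *Slc47a1* (248 ± 15.8) lay lower. *Slc22a2* (168 ± 26.3 CPM per kb), *Slc22a8* (167 ± 23.8) and *Slc22a7* (149 ± 14.3) came next. *Slc22a5* (137 ± 5.07) and *Slc17a3* (128 ± 17.2) followed and did not differ from *Slc22a7* beyond the spread. In null mice the genes below *Slc22a12* included *Slc22a18* (222 ± 37.5 CPM per kb), *Slc17a1* (205 ± 58.3), *Slc22a6* (165 ± 87.1) and *Slc22a8* (163 ± 13.8), none of which differed from the next one named beyond the spread. *Slco1a1* moved from place 12 in wildtype to place 30 in null mice.

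Organic anion uptake from blood is the task of *Slc22a6* (OAT1) and *Slc22a8* (OAT3), the basolateral exchangers that load the proximal tubule cell with drugs such as antibiotics and diuretics. Of 5 genes listed under organic anion uptake, 4 were tested, 3 lay below wildtype in every null mouse, and none lay above. Among all tested genes 23% lay below and 22.9% above. *Slc22a6* (chromosome 19 from 8618039 to 8628299, GRCm38) measured 1052, 517 and 401 CPM in null and 1287 and 1643 CPM in wildtype mice. The groups did not overlap, mouse 8637 came close to wildtype, and the log2 fold change was -1.16 ± 0.402 (SE; adjusted p = 0.152). Its neighbour *Slc22a8*, on the same strand, measured 604, 606 and 698 CPM in null and 587 and 719 CPM in wildtype mice. The groups overlapped fully for *Slc22a8*, with a log2 fold change of -0.04 ± 0.144 (adjusted p = 0.889). The count ratio of *Slc22a6* to *Slc22a8* within a library was 1.74, 0.854 and 0.575 in null and 2.19 and 2.28 in wildtype mice, so the balance between these 2 uptake genes was lower in each null mouse. This ratio was chosen after its values were seen.

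*Slc22a7* (OAT2), a transporter of nucleotides, urate and other small anions, measured 77.4, 51.3 and 187 CPM in null and 292 and 335 CPM in wildtype mice. All null mice were below wildtype, and here mouse 9121 was the highest of the 3. The log2 fold change was -1.57 ± 0.497 (quasi-likelihood adjusted p = 0.132, exact test adjusted p = 0.0263), and without mouse 9121 it was -2.28 (adjusted p = 0.0146). *Slco4c1*, a basolateral transporter of digoxin and thyroid hormone, measured 15.4, 13.3 and 4.96 CPM in null against 23.3 and 20.6 CPM in wildtype mice (log2 fold change -0.97, adjusted p = 0.215), and without mouse 9121 the log2 fold change was -0.62 (adjusted p = 0.101). *Slc22a20* had no count in any mouse.

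A run of 6 further *Slc22* genes lies on the minus strand of chromosome 19, before *Slc22a8* and *Slc22a6* in chromosome order, all of them rodent organic anion transporters that arose by local duplication. Neighbours in this run went in opposite directions. *Slc22a30* measured 55.9, 27.6 and 4.81 CPM in null and 100 and 112 CPM in wildtype mice (log2 fold change -1.85 ± 0.794, adjusted p = 0.21). *Slc22a29*, the adjacent gene, measured 7.96, 15 and 27.5 CPM in null and 2.92 and 2.97 CPM in wildtype mice (log2 fold change 2.51 ± 0.542, adjusted p = 0.0802, exact test adjusted p = 0.000369). Without mouse 9121 the log2 fold changes were -1.35 for *Slc22a30* (adjusted p = 0.0789) and 1.96 for *Slc22a29* (adjusted p = 0.0499). Neither gene overlapped between genotypes, and within the null mice the order of *Slc22a30* was the reverse of that of *Slc22a29*. The count ratio of *Slc22a30* to *Slc22a29* was 34.4 and 37.6 in the wildtype mice and 7.02, 1.83 and 0.175 in null mice 8637, 9210 and 9121.

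*Slc22a28* measured 69.5, 52.9 and 10.6 CPM in null and 111 and 122 CPM in wildtype mice (log2 fold change -1.40 ± 0.651, adjusted p = 0.239), and without mouse 9121 its log2 fold change was -0.93 (adjusted p = 0.0451). *Slc22a26* measured 16.5, 9.51 and 8.13 CPM in null and 35.4 and 37.0 CPM in wildtype mice. It had the lowest adjusted p of any transporter, shared with *Abcc4*, with a log2 fold change of -1.67 ± 0.289 (quasi-likelihood adjusted p = 0.0644, exact test adjusted p = 1.05e-05). *Slc22a19* (OAT5), at the far end of the run, measured 75.8, 90.3 and 189 CPM in null and 169 and 158 CPM in wildtype mice. Mouse 9121 alone was above wildtype for *Slc22a19*, and without it the log2 fold change went from -0.47 (adjusted p = 0.463) to -0.98 (adjusted p = 0.026). *Slc22a27* was not tested, with 3, 7 and 25 counts in the null and 0 and 2 counts in the wildtype libraries.

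Reads aligned to more than 1 place were not counted, and these paralogs are alike. Of the 50-base windows in their transcripts, 53.9% of those of *Slc22a28* and 34.3% of those of *Slc22a30* occur in another gene, mostly in each other, as do 29.8% for *Slc22a29* and 29.9% for *Slc22a27*. Their counts are therefore uncertain, and how much of each difference this touches was not tested. The 120 bases before the RefSeq start of each gene (GRCm38.p6, minus strand, 5′ to 3′) are printed because neighbours in this run differed in direction. They lie at chr19:7711311-7711430 (*Slc22a19*), chr19:7802668-7802787 (*Slc22a26*), chr19:7966028-7966147 (*Slc22a27*), chr19:8131983-8132102 (*Slc22a28*), chr19:8218901-8219020 (*Slc22a29*) and chr19:8405106-8405225 (*Slc22a30*).
Slc22a19: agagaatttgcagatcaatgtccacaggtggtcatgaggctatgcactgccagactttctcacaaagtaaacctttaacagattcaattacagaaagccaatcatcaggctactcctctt
Slc22a26: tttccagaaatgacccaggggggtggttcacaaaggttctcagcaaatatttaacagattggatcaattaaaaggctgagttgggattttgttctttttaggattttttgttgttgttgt
Slc22a27: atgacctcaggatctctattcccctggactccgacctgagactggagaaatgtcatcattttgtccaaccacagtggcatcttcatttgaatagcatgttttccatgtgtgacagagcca
Slc22a28: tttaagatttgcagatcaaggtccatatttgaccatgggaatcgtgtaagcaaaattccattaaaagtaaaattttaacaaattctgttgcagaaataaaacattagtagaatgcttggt
Slc22a29: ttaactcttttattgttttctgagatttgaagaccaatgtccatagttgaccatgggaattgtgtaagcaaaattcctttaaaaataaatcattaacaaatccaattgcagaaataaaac
Slc22a30: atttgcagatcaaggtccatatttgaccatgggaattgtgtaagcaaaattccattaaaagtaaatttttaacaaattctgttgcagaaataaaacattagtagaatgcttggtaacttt

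After pairwise alignment, *Slc22a28* and *Slc22a30*, both lower in every null mouse, shared 88.9% of aligned positions. *Slc22a29*, higher in every null mouse, shared 64.5% with *Slc22a28* and 59.0% with *Slc22a30*, and *Slc22a26*, also lower, shared 50.4% with *Slc22a28*. Gaps counted as positions, and the windows are offset from each other. The stretch gcagaaataaaac ends the *Slc22a29* window, whereas further bases follow it in those of *Slc22a28* and *Slc22a30*. The aligned positions numbered 138 and 144 for *Slc22a29* with these genes, against 126 between them. The lower shares of *Slc22a29* therefore do not show a divergent upstream sequence. Identity over the corresponding bases alone was not tested.

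**Figure D2:**
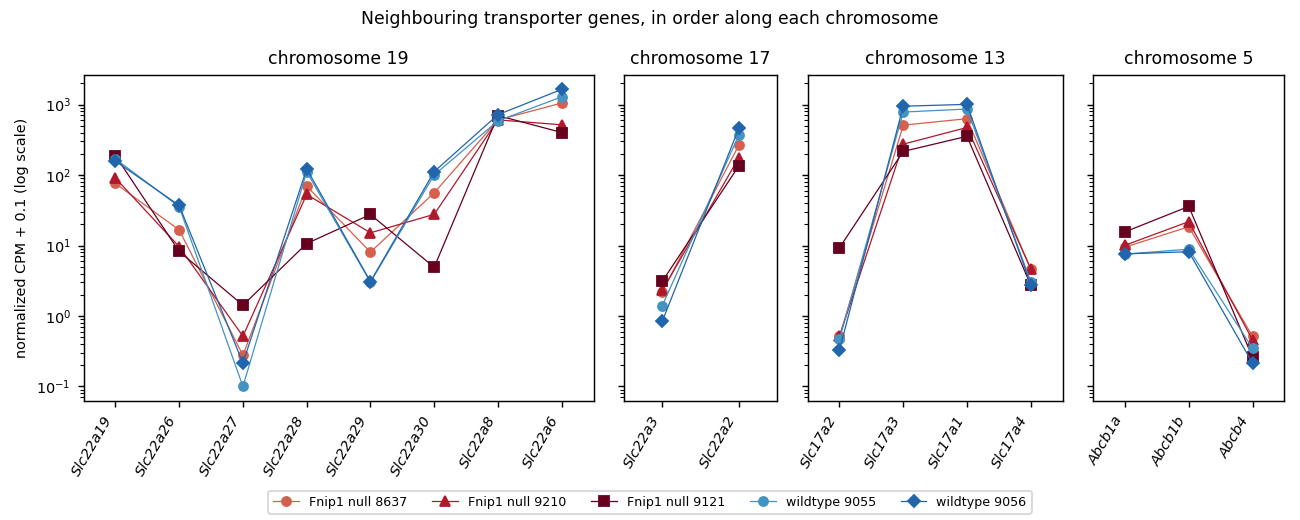
Normalized CPM plus 0.1 on a log axis for transporter genes that are neighbours on chromosomes 19, 17, 13 and 5, in chromosome order, with 1 line per mouse. On chromosome 19 the null lines lie below wildtype at *Slc22a28* and *Slc22a30* and above it at *Slc22a29*, while all 5 mice meet at *Slc22a8*.

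Urate handling showed the largest absolute difference in summed CPM among the role groups, while the ratio of null to wildtype was lower for the Slco genes (0.433). The 7 genes listed for urate and anion exchange summed to 3259, 2121 and 1835 CPM in null and 4712 and 5370 CPM in wildtype mice, a ratio of 0.477. Of 6 tested, 4 were below wildtype in every null mouse and none above, where 23% of all tested genes were below and 22.9% above. *Slc22a12* (URAT1; chromosome 19 from 6535845 to 6543032), the apical exchanger that takes urate back from the filtrate, measured 1597, 935 and 832 CPM in null and 2479 and 2778 CPM in wildtype mice. Every null mouse was well below wildtype, with a log2 fold change of -1.23 ± 0.306 (quasi-likelihood adjusted p = 0.0985, exact test adjusted p = 0.00328). Of its windows 28.5% are not unique, mostly shared with *Nrxn2*, which overlaps it on the opposite strand, and without a stated strand setting the reads of such an overlap cannot be told apart.

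*Slc17a3* and *Slc17a1* (NPT4 and NPT1), adjacent genes on chromosome 13 for apical anion and urate exit, had the same order of mice. *Slc17a3* measured 510, 274 and 216 CPM in null and 783 and 948 CPM in wildtype mice (log2 fold change -1.37 ± 0.351, adjusted p = 0.102, exact test adjusted p = 0.00594). *Slc17a1* measured 630, 473 and 354 CPM in null and 865 and 1007 CPM in wildtype mice, and at -0.95 ± 0.241 it was short of 2-fold (adjusted p = 0.102). The outer genes of that run differed from these. *Slc17a4*, a urate exporter best known from intestine, was at 2.64 to 4.58 CPM in all mice with overlapping groups, and *Slc17a2* was not tested, with 7 counts in each of null mice 8637 and 9210, 174 in mouse 9121 and 6 and 4 in the wildtype mice. *Slc17a2* was therefore above the other libraries in mouse 9121 alone.

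*Abcg2*, the ATP-driven urate and drug exporter of the apical membrane, measured 460, 377 and 326 CPM in null and 491 and 547 CPM in wildtype mice (log2 fold change -0.42, adjusted p = 0.18). The groups did not overlap, by a small margin in mouse 8637. *Slc22a13* (OAT10), a urate and nicotinate exchanger, measured 56.7, 55.9 and 94.6 CPM in null and 90.9 and 87.5 CPM in wildtype mice. As for *Slc22a19*, mouse 9121 was above wildtype and the other null mice below, and without it the log2 fold change was -0.66 (adjusted p = 0.0382) in place of -0.37 (adjusted p = 0.372). Of the windows of *Slc22a13*, 36.0% are not unique, and the pseudogene *Slc22a13b-ps* is the gene with which it shares the most.

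**Figure D3:**
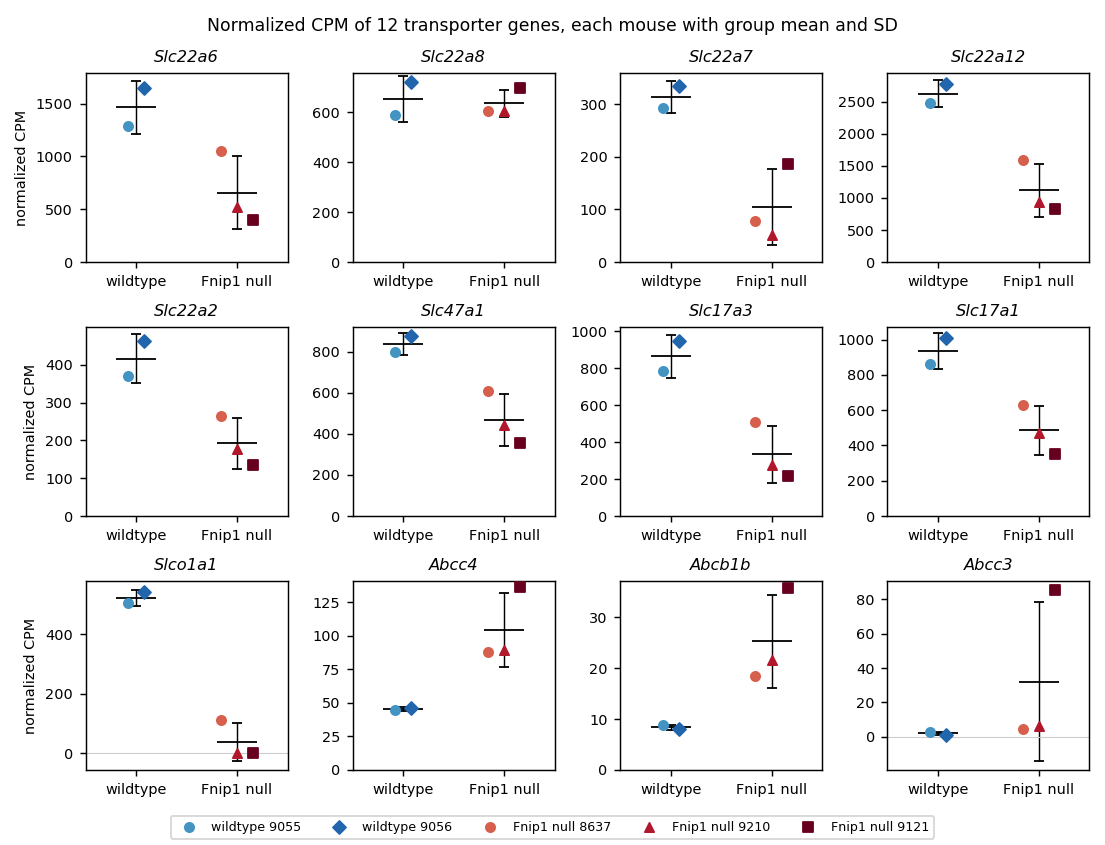
Normalized CPM of 12 transporter genes in each mouse, on linear axes with a scale of its own per gene; horizontal bars are group means and error bars SD (wildtype, n = 2; *Fnip1* null, n = 3). *Slc22a8* overlaps between genotypes, *Abcc4* and *Abcb1b* lie above wildtype in every null mouse, *Abcc3* is high in mouse 9121 (85.7 CPM), and the remaining genes lie below wildtype in every null mouse.

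Organic cations such as metformin and creatinine enter the tubule cell through *Slc22a2* (OCT2) and leave it through *Slc47a1* (MATE1), and both genes were lower in every null mouse. *Slc22a2* (chromosome 17 from 12584132 to 12628488) measured 265, 176 and 134 CPM in null and 370 and 463 CPM in wildtype mice (log2 fold change -1.12 ± 0.276, adjusted p = 0.0978, exact test adjusted p = 0.00632). *Slc47a1* measured 608, 442 and 356 CPM in null and 801 and 877 CPM in wildtype mice, a smaller difference of -0.84 ± 0.226 (adjusted p = 0.106). Its partner *Slc47a2* was not tested, with 1 to 5 counts per mouse.

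Near *Slc22a2* on chromosome 17, the values of *Slc22a3* lay the other way. *Slc22a3* (OCT3), a low-affinity carrier of monoamines, measured 2.12, 2.20 and 3.01 CPM in null and 1.30 and 0.744 CPM in wildtype mice (log2 fold change 1.26 ± 0.355, adjusted p = 0.112, exact test adjusted p = 0.0346). Every null mouse was above both wildtype mice.

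Carnitine and ergothioneine carriers differed little. *Slc22a5* (OCTN2), which reabsorbs carnitine, measured 398, 315 and 306 CPM in null and 411 and 433 CPM in wildtype mice (log2 fold change -0.31, adjusted p = 0.229), and the groups stood just apart. *Slc22a4* (OCTN1), the ergothioneine transporter, overlapped between genotypes at 41.9 to 69.7 CPM in null and 69.5 and 79.3 CPM in wildtype mice. *Slc22a21* was at 1.74 to 2.00 CPM in all mice, and *Slc22a16* had no count. *Slc22a5* and *Slc22a21* share 27.1% and 24.2% of their windows, largely with each other.

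Among the less studied Slc22 genes, *Slc22a18* and *Slc22a23* held opposite positions. *Slc22a18*, an organic cation transporter-like gene in an imprinted region, measured 450, 349 and 332 CPM in null and 544 and 620 CPM in wildtype mice (log2 fold change -0.63 ± 0.161, adjusted p = 0.102). *Slc22a23*, an orphan carrier, measured 138, 153 and 157 CPM in null and 99.7 and 109 CPM in wildtype mice, with a small spread (log2 fold change 0.52 ± 0.0986, adjusted p = 0.0692). *Slc22a22*, a prostaglandin carrier, measured 120, 83.2 and 32.9 CPM in null and 132 and 154 CPM in wildtype mice (log2 fold change -0.86, adjusted p = 0.295), and at -0.49 without mouse 9121 the difference was smaller (adjusted p = 0.195). These 3 did not overlap between genotypes. *Slc22a15* was above wildtype in every null mouse at 2.48 to 3.63 CPM against 1.60 and 2.11 CPM (log2 fold change 0.79, adjusted p = 0.162), and *Slc22a17*, a lipocalin receptor, overlapped at 25.8 to 31.1 CPM in all mice.

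The Slco family, which carries bile acids, steroid conjugates, thyroid hormone and prostaglandins, had 15 genes, 8 of them tested. Of these, 4 lay below wildtype in every null mouse and 1 above, positions held by 23% and 22.9% of all tested genes. *Slco1a1*, a carrier of steroid sulfates whose kidney level is known to depend on androgens, had the lowest log2 fold change of the transporters tested. It measured 114, 1.66 and 0.475 CPM in null and 503 and 541 CPM in wildtype mice, which in counts is 1930, 28 and 9 against 8100 and 9458. The null mean was 13.5-fold lower, but the null mice spanned a range so wide that the log2 fold change of -3.76 ± 1.78 had an adjusted p of 0.244. Without mouse 8637 the log2 fold change was -8.95 (adjusted p = 0.00149), and without mouse 9121 it was -3.18 (adjusted p = 0.225).

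*Slco1a6*, a close relative on the same stretch of chromosome 6, overlapped between genotypes at 216, 209 and 331 CPM in null and 261 and 289 CPM in wildtype mice. The count ratio of *Slco1a1* to *Slco1a6*, chosen after its values were seen, was 1.93 and 1.87 in wildtype and 0.527, 0.00798 and 0.00144 in null mice. *Slco1a4*, a scarce gene of the same stretch, was at 0.832 to 2.06 CPM in null and 2.30 and 2.57 CPM in wildtype mice. *Slco3a1*, a prostaglandin and thyroid hormone carrier on chromosome 7, measured 201, 94.4 and 61.1 CPM in null and 279 and 314 CPM in wildtype mice (log2 fold change -1.32 ± 0.451, adjusted p = 0.149, exact test adjusted p = 0.0463). The prostaglandin transporter *Slco2a1* overlapped between genotypes, with the highest value, 59.3 CPM, in mouse 9121 (log2 fold change 0.37, and 0.15 without that mouse), and *Slco2b1* was above wildtype in every null mouse at 36.2 to 38.8 CPM against 27.8 and 32.4 CPM (log2 fold change 0.31, adjusted p = 0.155). *Slco4a1* overlapped, at 4.36 to 16.7 CPM in null and 4.35 and 7.95 CPM in wildtype mice, and its log2 fold change of 0.63 was -0.070 without mouse 9121.

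Among the ATP-driven efflux pumps more genes lay above wildtype than below. Of 12 genes listed, 11 were tested, 6 (54.5%) lay above wildtype in every null mouse, 3 (27.3%) below and 2 overlapped. The shares of all tested genes were 22.9% above and 23% below, so the share below was near that of all genes. *Abcc4* (MRP4), the apical pump for organic anions and cyclic nucleotides, measured 87.9, 89.3 and 136 CPM in null and 44.5 and 46.3 CPM in wildtype mice. Null mice had 2.30 times the wildtype mean, with a log2 fold change of 1.20 ± 0.212 (quasi-likelihood adjusted p = 0.0644, exact test adjusted p = 7.1e-05), and without mouse 9121 the value was 0.96 (adjusted p = 0.0181), under 2-fold.

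P-glycoprotein, the broad exporter of hydrophobic drugs, is encoded in mice by *Abcb1a* and *Abcb1b*, neighbours on chromosome 5. *Abcb1b* measured 18.4, 21.7 and 35.7 CPM in null and 8.76 and 8.07 CPM in wildtype mice (log2 fold change 1.59 ± 0.305, quasi-likelihood adjusted p = 0.0706, exact test adjusted p = 0.00017). *Abcb1a* measured 9.37, 9.99 and 15.5 CPM in null and 7.46 and 7.49 CPM in wildtype mice (log2 fold change 0.64 ± 0.252, adjusted p = 0.186), which became 0.37 when mouse 9121 was left out. Both were above wildtype in every null mouse, and the count ratio of *Abcb1b* to *Abcb1a* was 1.96, 2.17 and 2.30 in null against 1.18 and 1.08 in wildtype mice. They share 18.6% and 19.4% of their windows with each other or other genes. The third gene of the run, *Abcb4*, had 2 to 7 counts in each mouse.

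*Abcc3* (MRP3), a basolateral pump for glucuronides, measured 4.36, 6.12 and 85.7 CPM in null and 2.67 and 1.26 CPM in wildtype mice. All null mice were above wildtype, but mouse 9121 set the size of the difference. The log2 fold change was 4.04 ± 1.55 (adjusted p = 0.178) with all mice and 1.43 ± 0.38 (adjusted p = 0.112, exact test adjusted p = 0.0198) without mouse 9121. *Abcc1* (MRP1) measured 34.7, 47.8 and 52.2 CPM in null and 30.8 and 26.3 CPM in wildtype mice (log2 fold change 0.65 ± 0.19, adjusted p = 0.117).

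*Abcc2* (MRP2), the apical pump for conjugated drugs, held the opposite position to *Abcc4*, at 386, 280 and 199 CPM in null and 452 and 467 CPM in wildtype mice (log2 fold change -0.67 ± 0.256, adjusted p = 0.176). *Abcc6*, which supports ATP release, was at 10.7 to 14.6 CPM in null and 16 and 18.2 CPM in wildtype mice (log2 fold change -0.51, adjusted p = 0.154). *Abcc5*, a nucleotide pump, stood just above wildtype at 33.2 to 34.9 CPM against 30.3 and 32.6 CPM. *Abcc10* and *Abcg3* overlapped, and *Abcc12* had no count.

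The remaining genes matched by symbol are not transporters of drugs at the cell surface, and they differed little. *Abcb6*, which moves porphyrins, was below wildtype in every null mouse at 53.6 to 63.8 CPM against 72.6 and 80.0 CPM (log2 fold change -0.41, adjusted p = 0.105), with 88.9% of its windows also in the transcript of an overlapping gene model, *Gm29253*. The mitochondrial *Abcb8* and *Abcb10* and the lysosomal *Abcb9* overlapped between genotypes, with log2 fold changes of -0.23, -0.02 and 0.06. *Abcc9*, a regulator of potassium channels, overlapped too, as did the lysosomal sialic acid exporter *Slc17a5* (-0.32) and the scarce vesicular glutamate transporter gene *Slc17a8* (-0.59, and -0.15 without mouse 9121). Of the 24 genes that were not tested, 8 had no count in any mouse and 16 had some. Among these 16, counts stayed at 12 or less in each mouse with the exceptions of *Slc17a2* and *Slc22a27* in mouse 9121, and a difference was not detectable at this depth.

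With mouse 9121 left out, the quasi-likelihood test called 2 transporters lower (*Slc22a26* and *Slc22a7*) and 2 higher (*Abcb1b* and *Slc22a29*), against 0.329% and 0.644% of all genes. The exact test then called 6 lower (*Slc22a12*, *Slc22a7*, *Slc22a26*, *Slc22a30*, *Slc17a3* and *Slco3a1*) and 3 higher (*Abcb1b*, *Abcc3* and *Slc22a29*), against 1.08% and 2.4% of all genes. It no longer called *Slc22a2* (log2 fold change -0.92) or *Abcc4* (0.96), which were short of 2-fold, nor *Slc22a3* (exact test adjusted p = 0.11). With mouse 8637 left out instead, the quasi-likelihood test called 10 lower (*Slc22a12*, *Slc22a6*, *Slc22a2*, *Slc47a1*, *Slc17a1*, *Slc17a3*, *Slc22a26*, *Slc22a30*, *Slco1a1* and *Slco3a1*) and 3 higher (*Abcc4*, *Abcb1b* and *Slc22a29*), against 2.07% and 4.74% of all genes. It called no transporter with mouse 9210 left out, where it also called none of all genes tested. By the quasi-likelihood test calls were thus more numerous without mouse 8637 or 9121 than with all 5 mice. The exact test made 1 call fewer without 9121. Without 8637 it called 15 transporters lower and 5 higher, where it called 339 and 953 of all genes. Without 9210 it called 1 lower and 4 higher, where it called 66 and 206 of all genes.

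**Figure D4:**
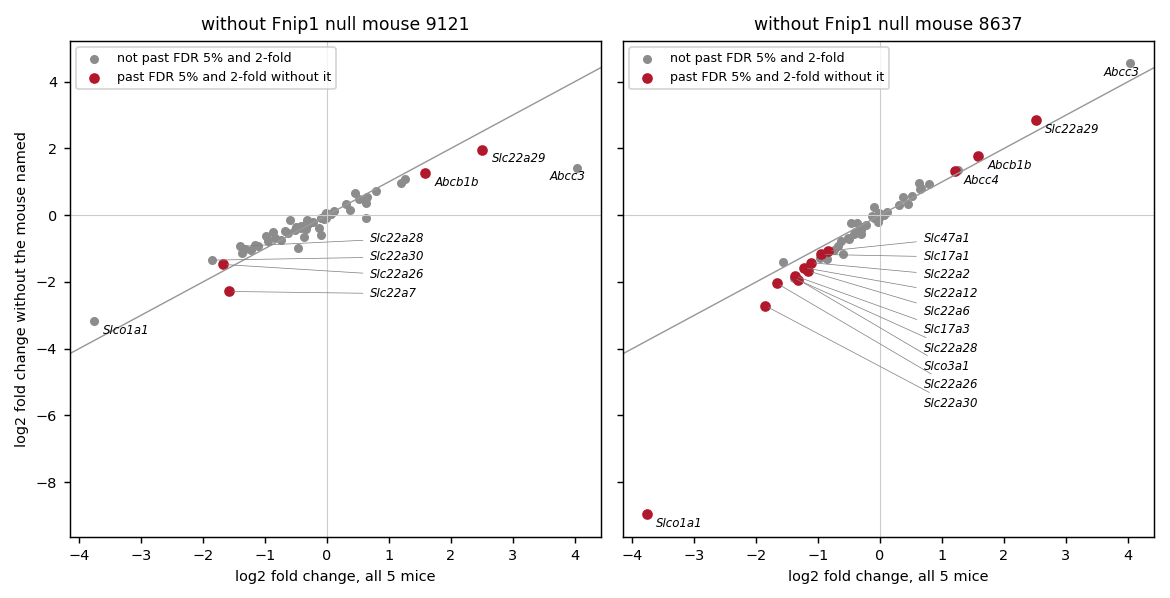
Log2 fold change of each tested transporter with all 5 mice (x axis) against the value without null mouse 9121 (left) or 8637 (right), with a line of equality; red points pass an FDR of 5% and 2-fold in the fit without that mouse. *Abcc3* goes from 4.04 to 1.43 without 9121, and *Slco1a1* from -3.76 to -8.95 without 8637.

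Other genes of the pathway were taken from a list of scaffolds, co-transporters and regulators, 25 of which were tested. Of these, 9 lay below wildtype in every null mouse and 7 above, where 23% and 22.9% of all genes lay so. None passed the quasi-likelihood threshold, and the exact test called 1 lower and 1 higher, or 1 of 25 each way, against 1.04% and 3.03% of all genes. The nucleoside carrier gene *Slc28a1* passed the FDR without reaching 2-fold, at 18 to 19.4 CPM in null and 31.3 and 33.3 CPM in wildtype mice (log2 fold change -0.80 ± 0.102, adjusted p = 0.0411). The lower one was *Slc5a8*, a sodium-coupled carrier of lactate and other monocarboxylates, at 371, 231 and 142 CPM in null and 607 and 601 CPM in wildtype mice (exact test adjusted p = 0.0134). The higher one was *Prlr*, the prolactin receptor, at 57.3, 112 and 229 CPM in null and 21.2 and 18.2 CPM in wildtype mice (log2 fold change 2.75 ± 0.58, quasi-likelihood adjusted p = 0.0779, exact test adjusted p = 0.000225). *Pdzk1*, the apical scaffold that anchors several of these transporters, stood at 1465, 1244 and 1099 CPM in null and 1522 and 1823 CPM in wildtype mice (log2 fold change -0.40, adjusted p = 0.251). *Hnf4a*, which encodes a transcription factor of proximal tubule cells, overlapped between genotypes.

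Markers of other kinds of cell and state were read from the same libraries. A list of 15 other proximal tubule genes summed to 27741, 23492 and 21087 CPM in null and 27578 and 32038 CPM in wildtype mice, a ratio of 0.809, with 4 genes below wildtype in every null mouse, 4 above and 7 overlapping. At 26.7% each way these counts were near the shares of all tested genes, 23% below and 22.9% above, beside which the lists below are also to be read. All 5 podocyte genes were above wildtype in every null mouse, with sums of 659 to 773 CPM against 367 and 370 CPM. So were 8 of 11 tested leukocyte genes (sums 120 to 258 CPM against 113 and 138 CPM), 6 of 7 stromal genes (313 to 577 CPM against 166 and 291 CPM) and 3 of 6 endothelial genes (294 to 382 CPM against 156 and 272 CPM). Against this, 1 leukocyte gene, the macrophage receptor gene *Csf1r*, was below wildtype in every null mouse at 38.2, 36.4 and 63.9 CPM against 72.4 and 68.4 CPM (log2 fold change -0.61, adjusted p = 0.193), and the B cell gene *Cd79a* was at 0 in all null mice. Genes of other nephron segments were above in 7 of 11 cases (8662 to 12418 CPM against 8095 and 8949 CPM), and tubular injury genes in 2 of 5 (1932 to 2807 CPM against 810 and 823 CPM). Nearly all of the injury sum was *Spp1*, at 1906, 2774 and 2636 CPM in null and 794 and 813 CPM in wildtype mice. *Havcr1*, *Vcam1* and *Sox9* overlapped between genotypes. Of 3 tested adipocyte genes 1 was above in every null mouse (52.8 to 320 CPM against 32.9 and 35.1 CPM). The part of each list in the transporter values was not tested.

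A list of 8 genes known to be androgen-dependent or male-biased in mouse kidney held no transporters of this class. All 8 lay below wildtype in every null mouse, a position held by 23% of all tested genes. Their sum was 18190, 7303 and 5519 CPM in null and 35429 and 39474 CPM in wildtype mice. *Slc22a6*, *Slc22a12*, *Slc17a3* and *Slco1a1* had that order of null mice, while *Slc22a7*, *Slc22a13* and *Slc22a19* were highest in mouse 9121. The order is a common one. Over all genes below wildtype in every null mouse, 8637 was closest to wildtype for 68.8% and 9121 furthest for 57.4%. The female-biased *Cyp4a14* measured 245, 458 and 470 CPM in null and 23.6 and 48.0 CPM in wildtype mice (log2 fold change 3.45, adjusted p = 0.0411). Null mice 8637 and 9210, whose Y-linked sums of 133 and 127 CPM were near the wildtype 133 and 145 CPM, were also below wildtype for these genes. The part of sex, or of the androgen-dependent genes, in the transporter values was not tested.

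**Figure D5:**
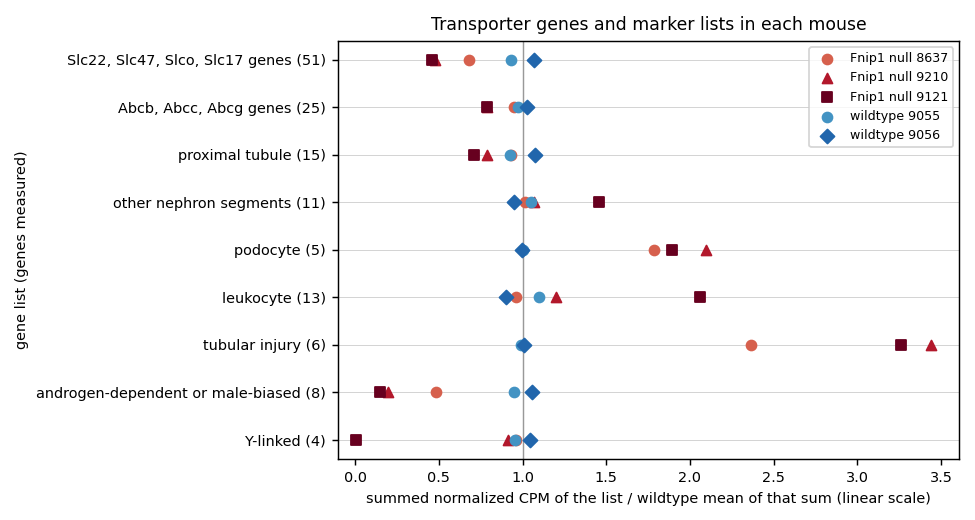
Summed normalized CPM of each gene list in each mouse, divided by the wildtype mean of that sum, on a linear axis, with the number of genes measured in parentheses. The solute carrier genes of all null mice lie below wildtype (ratio of means 0.539), other proximal tubule genes lie closer to it (0.809), and mouse 9121 is at 0.370 summed CPM for the 4 Y-linked genes.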

How the data were processed

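RNAseq of cortical kidney tissue was deposited for 3 *Fnip1* null and 2 wildtype mice. The authors sequenced paired-end reads, filtered them for quality, aligned them to mm10 (TopHat2 2.1.0) and tallied reads for each symbol (HTSeq 0.6.1), with versions from the submitters' processing notes, and the deposited values are raw counts. The library labelled 9210 is filed under a different number, and the label was followed. HTSeq's own summary rows were left out of library sizes: reads without a feature (9.91 to 10.8% of rows), aligned to several places (28.3 to 31.4%) or ambiguous (0.741 to 0.804%). The strand setting is not given in the sources used here.

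The genotypes were compared with edgeR 4.0.16 in R 4.3.3 (TMM, quasi-likelihood test, 3 null against 2 wildtype mice, no covariate). Testing required 10 or more counts in at least 3 of the 5 mice, and p-values were adjusted by Benjamini-Hochberg over all 13874 genes. Standard errors of log2 fold changes come from the fold change and its F statistic, and ± after a mean is SD. Adjusted p-values are two-sided and from the quasi-likelihood test unless the exact test is named. The tests were tested on simulated data of the same 13874 genes, with 200 changed 4-fold, of which the quasi-likelihood test recovered 178 and the exact test 186. Simulated mice of a group shared a common mean per gene. These figures therefore do not measure the power for smaller changes, or for null mice that differ among themselves. Alternatives were 20 settings, which changed the test (exact, likelihood ratio, legacy quasi-likelihood, or DESeq2 1.42.0), the normalization, the filter, the threshold or the mice included. Correlations of log2 CPM between mice of a genotype were 0.974 to 0.993, and no pair agreed within sampling noise (chi-square per degree of freedom of at least 9.58). Counting floors cover counting error only. Exon lengths, positions and the share of 50-base windows found in another gene come from GENCODE M21 (GRCm38; all 76 symbols matched), and upstream sequences from RefSeq (GRCm38.p6). These were aligned globally, with gaps counted as positions.

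The transporters, role lists, marker lists and named genes (every tested member of a role list, and every transporter at a mean of 10 CPM or past a threshold) were chosen with earlier results of these data known. Some genes of these lists and the motif search are not reported here, though the genes count in the totals.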

Additional observations from a re-analysis of the deposited data

How the results depend on the processing

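None of the 936 single-gene values under the alternatives lost a call, since none was called with all mice by the quasi-likelihood test; 84 values of 20 genes passed the threshold under another setting, and 29 values of 9 genes changed sign. The counts of transporters called lower and higher were 6 and 4 by the exact test, 7 and 5 by the likelihood ratio test, 4 and 3 by DESeq2 and 3 and 3 at an FDR of 10%. Over all genes the exact test called 144 and 421, the likelihood ratio test 151 and 477 and DESeq2 121 and 366. The count over all genes at an FDR of 10% is not given. With a null mouse left out, the counts of transporters ranged from 0 to 10 lower and 0 to 3 higher by the quasi-likelihood test, the calls appearing only without null mouse 8637 or 9121. Without 9210 that test called none of all genes either. By the exact test the transporters called were 15 and 5 without null mouse 8637, 1 and 4 without 9210 and 6 and 3 without 9121. Over all genes those fits called 339 and 953, 66 and 206, and 151 and 335. Fits without a wildtype mouse keep only 1 mouse in that group, and their calls are not given. Normalization by library size only gave a median log2 fold change of -0.17 for the transporters, while the median of all genes went to 0.17, so that the distance between them was -0.33 in place of -0.32. With no filter on low counts, 68 transporters had a median of -0.13, a distance of -0.15 from all genes, which is less than with the filter. The numbers of transporters below and above wildtype in every null mouse kept were 22 to 29 and 11 to 14 under the settings that recomputed them. Leaving a mouse out loosens that rule, so those counts tend to stay or rise and do not measure stability. The shares of all genes under these settings are not given.

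Signs changed for genes near 0 and for *Slco4a1*, which went from 0.63 with all mice to -0.070 without null mouse 9121. With library size only, log2 fold changes became 0.14 for *Abcb10*, 0.12 for *Abcc10*, 0.078 for *Abcg3*, 0.16 for *Slc22a17*, 0.063 for *Slc22a21*, 0.13 for *Slc22a8* and 0.047 for *Slco1a6*. With each mouse left out in turn, the quasi-likelihood values ranged from -0.094 to 0.054 for *Abcb10*, -0.0079 to 0.15 for *Abcb9*, -0.19 to 0.072 for *Abcc10*, -0.59 to 0.23 for *Abcg3*, -0.095 to 0.072 for *Slc22a17*, -0.18 to 0.11 for *Slc22a8* and -0.070 to 1.12 for *Slco4a1*. In the exact test fits the values that changed sign were, without 8637, -0.0074 for *Abcb9*, 0.23 for *Abcg3* and 0.064 for *Slc22a17*, without 9210, 0.072 for *Abcc10*, without 9121, 0.054 for *Abcb10*, 0.0043 for *Abcc10* and -0.073 for *Slco4a1*, and, without 9056, 0.014 for *Abcb10*, 0.044 for *Abcc10*, 0.072 for *Slc22a17* and 0.11 for *Slc22a8*. No paired analysis was possible because the replicate numbers are mouse numbers and no number is shared between the genotypes. The 5 libraries, the 2 wildtype mice and the reads lost between near-identical transporters limit these results.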
